A study of Mus musculus with 14 samples.

Results

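The genes described here are Dusp1, Dusp2, Dusp5, Dusp6 and Dusp10, which encode dual-specificity phosphatases of the MAP kinase phosphatase type. They were taken as a named set, but with earlier results of these data known, and other genes of this type are given below. All 5 were found among the 10210 genes listed in the table of natural killer (NK) cell libraries. They were also among the 12235 genes listed in the table of sCAF libraries. NK cells are cytotoxic lymphocytes that kill tumour and virus-infected cells without prior sensitisation. They came from spleens of healthy BALB/C mice (3 libraries), from spleens of BALB/C mice bearing a 4T1 mammary tumour (4 libraries), and from primary 4T1 tumours (4 libraries). A further 3 libraries came from sCAFs, a population of cancer-associated fibroblasts from the same kind of tumour.

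The mice were females 8 weeks of age. 4T1 is a mouse mammary carcinoma line, and tumours were made by injecting 100000 4T1-GFP cells, which carry green fluorescent protein, into a mammary fat pad. Healthy mice received no tumour. NK cells of all 3 groups were enriched with a magnetic kit and then sorted as GFP-, EPCAM-, CD3-, CD31-, CD14-, CD45+ and NKp46+ cells, and sCAFs were sorted as EPCAM-, GFP-, CD45-, CD31- and PDPN- cells. Tumours were digested with collagenase A and DNase for 20 min at 37 °C, while spleens were crushed without enzymes and their red cells lysed on ice, so that tissue and dissociation cannot be told apart in any comparison of tumour with spleen. The labels do not tie the libraries of a group to separate animals, so the p-values measure only the spread between these libraries.

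Signals from receptors and stress run through cascades of kinases to the MAP kinases ERK, JNK and p38, which are active when both a threonine and a tyrosine of their activation loop carry phosphate. Dual-specificity MAP kinase phosphatases remove both phosphates and so end the signal. Many of them are themselves transcribed in response to MAP kinase activity, which makes them both brakes on the pathway and readouts of its use, and in lymphocytes several rise soon after activation. Dusp1 and Dusp2 encode inducible nuclear phosphatases with several MAP kinases as substrates, Dusp5 encodes a nuclear phosphatase for ERK, Dusp6 encodes a cytoplasmic phosphatase for ERK, and Dusp10 encodes a phosphatase that acts mainly on JNK and p38. RNA levels do not measure phosphatase protein or activity.

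The promoters of Dusp1, Dusp2 and Dusp5 are shown because these 3 members had the lowest adjusted p-values in both comparisons of tumour with spleen given below. The stretches are from RefSeq on the mouse build GRCm38.p6 (mm10), run from 210 to 41 bases before the RefSeq start, and are written 5′ to 3′ on the strand of the gene. The Dusp1 stretch is chr17:26508513-26508682 on the minus strand, the Dusp2 stretch is chr2:127335949-127336118 on the plus strand, and the Dusp5 stretch is chr19:53528935-53529104 on the plus strand. Capitals mark a cAMP response element (CRE), its core, an E-box or a CArG box.
Dusp1: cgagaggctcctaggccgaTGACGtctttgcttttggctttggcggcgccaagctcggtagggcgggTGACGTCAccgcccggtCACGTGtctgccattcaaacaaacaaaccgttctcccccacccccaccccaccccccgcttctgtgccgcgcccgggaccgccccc
Dusp2: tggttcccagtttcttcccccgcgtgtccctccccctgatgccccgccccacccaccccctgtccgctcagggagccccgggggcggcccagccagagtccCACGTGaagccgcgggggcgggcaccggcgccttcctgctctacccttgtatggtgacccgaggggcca
Dusp5: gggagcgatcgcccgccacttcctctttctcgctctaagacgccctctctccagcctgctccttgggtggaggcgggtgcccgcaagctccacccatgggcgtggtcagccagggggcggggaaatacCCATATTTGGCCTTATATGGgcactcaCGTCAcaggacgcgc
In the Dusp1 stretch the capitals are a CRE core 191 bases before the start, the full CRE at 143 and an E-box at 126. In the Dusp2 stretch they are an E-box at 109. In the Dusp5 stretch they are adjoining CArG boxes at 82 and 72, the letters bound by serum response factor, and a CRE core at 55. The last bases of the Dusp1 stretch lie in a Dusp1 exon of GENCODE M21, the Dusp5 stretch lies within an exon of the antisense gene AC137853.2, and the Dusp2 stretch touches no annotated exon.

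Letters were searched on both strands in windows of 300 bases, from 250 before to 50 after the start, for 32851 RefSeq promoters of 27025 genes. The full CRE, TGACGTCA, was in 1.79% of promoters and in 1 of the 5 members' promoters (Dusp1). Its core, TGACG, which every full CRE contains, was in 20.8% of promoters and in 3 of 5, the Dusp2 match lying after the start. The CArG box was in 1.63% and in 1 of 5 (Dusp5), and the E-box CACGTG was in 7.15% and in 2 of 5 (Dusp1 and Dusp2). The AP-1 letters TGACTCA or TGAGTCA (5.2% of promoters), the NF-kappaB motif (4.51%) and TATAAA (13.6%) were in none of the 5 windows, and the windows of Dusp6 and Dusp10 held none of the 7 motifs. All 5 windows were rich in G and C, at 67% for Dusp1, 70.7% for Dusp2, 66.7% for Dusp5, 57.3% for Dusp6 and 61% for Dusp10, beside a median of 52.7% over all promoters. They held 19 to 31 CpG dinucleotides, beside a median of 7. A match describes letters only and is not evidence of binding.

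The libraries are 3' end counts of polyA RNA. Totals over the listed genes ran from 559688 to 1966963 in the NK libraries and from 1318067 to 2230475 in the sCAF libraries. NK levels are CPM, a count as a share of its library on a fixed scale, with library sizes scaled by TMM, the trimmed mean of M values. A count of 0 allows up to 3 counts, which is 1.53 to 5.36 CPM in an NK library and covers counting error only. The 11 genes of an NK marker list, all in the table, summed to between 2.82% and 3.23% of counts in healthy spleen libraries, 2.70% to 3.02% in tumour-bearing spleen libraries and 1.93% to 2.25% in tumour libraries. The sum was mostly Gzma, at means of 17180, 17490 and 13270 CPM in that order. Il2rb (844, 1127 and 1457 CPM) and Eomes (566, 450 and 629 CPM) were highest in the tumour. The other genes of the list averaged lower in the tumour than in either spleen group. The 7 spleen libraries fell on both sides of a main axis that crossed their groups: 59.4% of the variance around the group means lay on a component with healthy replicate 1 and tumour-bearing replicates 1 and 2 on one side and the other 4 on the other. In these bulk samples fewer cells of a type and less RNA per cell cannot be told apart.

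All 5 genes were higher in tumour NK cells than in NK cells of either spleen group, and in each case every tumour library lay above every spleen library. Between the spleen groups only Dusp2 was called, at close to double the healthy level in tumour-bearing mice. The plot of levels by library shows the same values for each gene.

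**Figure D1:**
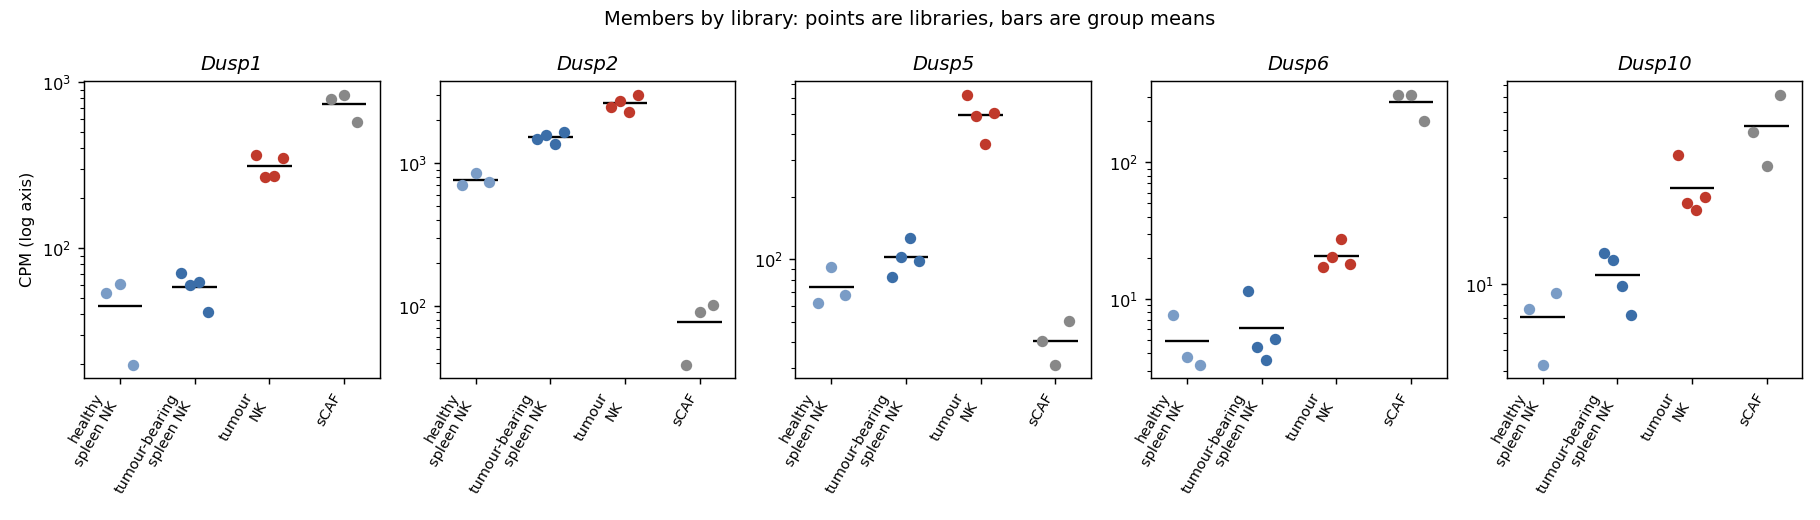
Level of each member in every library, in CPM on a log axis, with 1 point per library, and a bar at the group mean, for healthy spleen NK, tumour-bearing spleen NK, tumour NK and sCAFs. The tumour NK points lie above all spleen NK points for each gene, while the sCAF points were scaled in a separate table.

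Dusp1, whose product is also known as MKP-1 and is induced by stress, growth factors and glucocorticoids, was at 53.9, 60.5 and 19.8 CPM in the healthy spleen libraries. It was at 70.9, 59.7, 62.8 and 41.2 CPM in the tumour-bearing spleen libraries and at 366, 267, 272 and 348 CPM in the tumour libraries. The spleen groups overlapped and the tumour libraries stood well above both. Means were 44.7 ± 21.8 (SD, n = 3), 58.7 ± 12.5 (SD, n = 4) and 313 ± 51.1 CPM (SD, n = 4).

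Dusp2, whose product was first described in activated lymphocytes, was at 697, 848 and 742 CPM in healthy spleen NK cells. It was at 1470, 1571, 1361 and 1648 CPM in tumour-bearing spleen NK cells and at 2467, 2733, 2272 and 3021 CPM in tumour NK cells. The 3 groups formed 3 steps with no overlap, the lowest library of each lying above the highest of the group before. Means were 762 ± 77.8 (SD, n = 3), 1513 ± 125 (SD, n = 4) and 2623 ± 325 CPM (SD, n = 4).

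Dusp5, the ERK phosphatase of the nucleus, was at 61.6, 91.5 and 67.7 CPM in healthy spleen NK cells. It was at 82.3, 103, 127 and 98.4 CPM in tumour-bearing spleen NK cells and at 621, 491, 360 and 504 CPM in tumour NK cells. The spleen groups overlapped, and the lowest tumour library was well above the highest spleen library. Means were 73.6 ± 15.8 (SD, n = 3), 103 ± 18.3 (SD, n = 4) and 494 ± 107 CPM (SD, n = 4).

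Dusp6, the ERK phosphatase of the cytoplasm, rested on few reads, with 5, 7 and 4 counts in the healthy spleen libraries. The tumour-bearing spleen libraries held 15, 8, 7 and 7 counts and the tumour libraries 21, 14, 46 and 19. As CPM these were 7.71, 3.75 and 3.30, then 11.4, 4.47, 3.60 and 5.06, then 17.2, 20.3, 27.7 and 18.1. The healthy spleen counts were close to the 3 counts that a count of 0 allows. Means were 4.92 ± 2.42 (SD, n = 3), 6.14 ± 3.58 (SD, n = 4) and 20.8 ± 4.75 CPM (SD, n = 4), the highest value being tumour replicate 3.

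Dusp10, the phosphatase for JNK and p38, was also low, with 5, 8 and 11 counts in healthy spleen NK cells. It had 18, 23, 19 and 10 counts in tumour-bearing spleen NK cells and 47, 16, 36 and 26 in tumour NK cells. As CPM these were 7.71, 4.28 and 9.08, then 13.7, 12.8, 9.78 and 7.23, then 38.5, 23.2, 21.7 and 24.7. The spleen groups overlapped and the tumour group did not reach down to them. Means were 7.02 ± 2.47 (SD, n = 3), 10.9 ± 2.97 (SD, n = 4) and 27.0 ± 7.78 CPM (SD, n = 4), with tumour replicate 1 highest.

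Tumour NK cells were first compared with NK cells of tumour-bearing spleens, which sets tumour against spleen in mice that carry a tumour. In edgeR's quasi-likelihood test with Benjamini-Hochberg adjustment over the 8471 genes tested, all 5 members passed the threshold of 0.05 as higher in the tumour. Of all genes tested, 15.8% were called higher and 13.2% lower, and 16.5% had every tumour library above every tumour-bearing spleen library, as all 5 members did. The log2 fold changes were 2.41 for Dusp1 (SE 0.253, adjusted p = 7.77e-06), 0.79 for Dusp2 (SE 0.142, adjusted p = 0.000275) and 2.26 for Dusp5 (SE 0.177, adjusted p = 1.17e-08). They were 1.83 for Dusp6 (SE 0.345, adjusted p = 0.000467) and 1.31 for Dusp10 (SE 0.281, adjusted p = 0.00152). As folds, Dusp1 was 5.33 times, Dusp5 4.79 times, Dusp6 3.56 times, Dusp10 2.48 times and Dusp2 1.73 times its spleen level. The 95% intervals of the log2 values were 1.87 to 2.96 for Dusp1, 1.89 to 2.63 for Dusp5 and 1.11 to 2.55 for Dusp6, and they were 0.72 to 1.90 for Dusp10 and 0.50 to 1.09 for Dusp2. The interval of Dusp2 lay below those of Dusp1, Dusp5 and Dusp6, and that of Dusp10 overlapped all 4 others. The median over the 5 members was 1.83, beside 0.00 over all genes tested.

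Against healthy spleens, which share the tumour libraries with the comparison above, all 5 members were again called higher by the same test. In this comparison 16.5% of genes tested were called higher and 14% lower, and 18.5% had all tumour libraries above all healthy libraries, as did the 5 members. The log2 fold changes were 2.80 for Dusp1 (SE 0.298, adjusted p = 8.95e-06), 1.78 for Dusp2 (SE 0.162, adjusted p = 8.79e-08) and 2.71 for Dusp5 (SE 0.207, adjusted p = 7.95e-09). Dusp6 was at 2.24 (SE 0.425, adjusted p = 0.000466) and Dusp10 at 2.02 (SE 0.354, adjusted p = 0.000211). The members' median was 2.24, beside 0.02 over all genes tested. Against healthy replicate 1 alone, the healthy library on its side of the spleen axis and one assumed to vary like the other groups, Dusp6 was at 1.43 and no longer called (adjusted p = 0.122), whereas the other 4 stayed called.

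Taken by side of that axis, the change from tumour-bearing spleen to tumour was called on both sides for each member. With tumour-bearing replicates 1 and 2 as the spleen group, the log2 fold changes were 2.26 for Dusp1, 0.78 for Dusp2, 2.40 for Dusp5, 1.48 for Dusp6 and 1.02 for Dusp10. With replicates 3 and 4 they were 2.53 for Dusp1, 0.76 for Dusp2, 2.08 for Dusp5, 2.27 for Dusp6 and 1.60 for Dusp10. The adjusted p-values ran up to 0.013 on the first side and 0.00051 on the second, and all 4 tumour libraries entered both. The sides come from the expression of these same libraries, which narrows the spread within a side, so these values are not independent of each other or of the pooled ones.

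**Figure D2:**
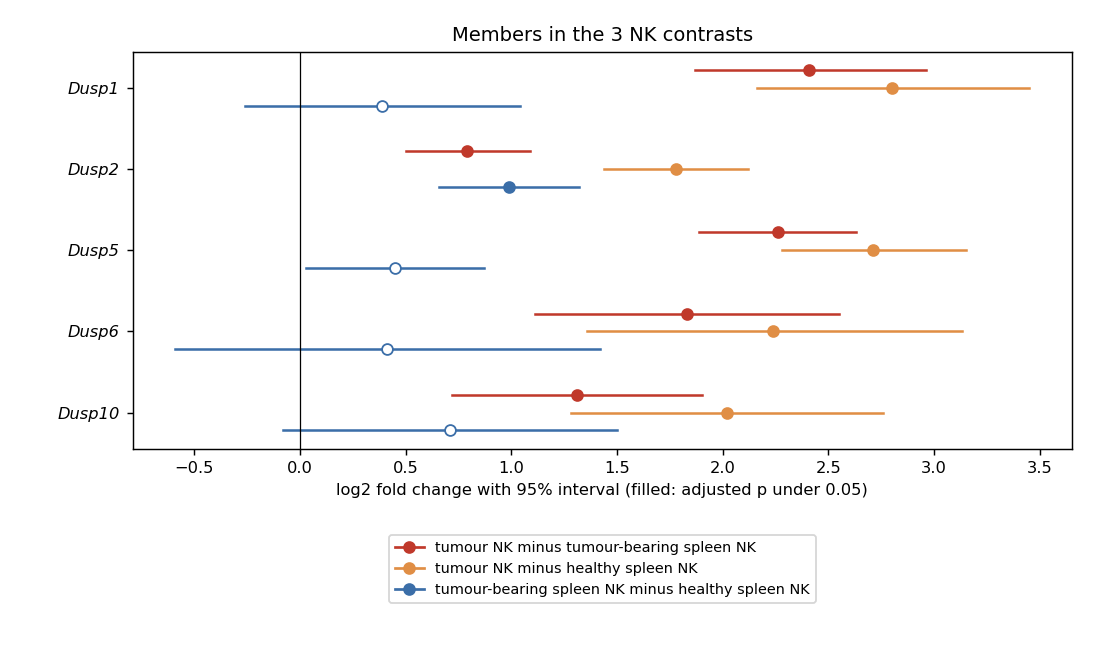
Log2 fold change of each member in the 3 NK comparisons, as points with their 95% intervals, filled where the gene was called and open where it was not. All 10 tumour values are called and lie above 0, and in the spleen comparison Dusp2 is the member called.

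The spleen comparison asks whether NK cells away from the tumour differ between tumour-bearing and healthy mice. Only Dusp2 passed, at a log2 fold change of 0.99 (SE 0.157, adjusted p = 0.00161, 1.98 times the healthy level), and all 4 tumour-bearing libraries lay above all 3 healthy ones. Summed markers of T cells and of dendritic cells moved the same way, while those of B cells did not. Of 10 T cell genes, the 3 in the table (Cd3d, Cd3g and Cd4) summed to 0.0106% to 0.0144% of counts in tumour-bearing spleen and 0.005% to 0.00793% in healthy spleen libraries. In the same order Cd3d averaged 80.2 and 28.1 CPM, Cd3g 45.5 and 32.2 CPM, and Cd4 1.10 and 2.31 CPM. Of 8 dendritic cell genes, the 2 in the table (Itgax and Zbtb46) summed to 0.025% to 0.032% and 0.0171% to 0.0178%. That sum was mostly the single gene Itgax, at means of 270 and 160 CPM, beside 4.52 and 2.77 for Zbtb46. Of 8 B cell genes, the 2 in the table (Cd79b and Cd22) went the other way, at 0.00089% to 0.0015% in tumour-bearing and 0.0020% to 0.0026% in healthy spleen. Summed macrophage and neutrophil genes overlapped between the spleen groups. Cd3e, Trac, Flt3 and Xcr1 have no value in the NK table, and the part of other cells in the Dusp2 level was not tested. Of the genes tested, 1.23% were called higher and 0.354% lower, and 6.52% had all tumour-bearing libraries above all healthy ones. The other 4 had intervals that held larger and smaller changes: −0.26 to 1.04 around 0.39 for Dusp1 (adjusted p = 0.718) and 0.03 to 0.87 around 0.45 for Dusp5 (adjusted p = 0.396). For Dusp6 the interval was −0.59 to 1.42 around 0.41 (adjusted p = 0.835) and for Dusp10 −0.08 to 1.50 around 0.71 (adjusted p = 0.507), so changes of the size of Dusp2's were not excluded for Dusp1, Dusp6 or Dusp10. With the side of the spleen axis as a block, in a fit of the 7 spleen libraries, Dusp5 was called as well, at 0.52 (adjusted p = 0.016). The sides were drawn from the expression of these same libraries, so the block narrows the spread by construction and this call is a description.

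The ratio of a member's counts to those of Dusp2 in the same library does not depend on scaling. Dusp2 itself was higher in the tumour and in tumour-bearing spleen, so the ratio shows a member's change relative to that of Dusp2 and not its size. Dusp1 counts were 2.67% to 7.74% of Dusp2 counts in healthy spleen libraries, 2.50% to 4.82% in tumour-bearing spleen libraries and 9.76% to 14.8% in tumour libraries. Dusp5 counts were 8.85% to 10.8%, 5.60% to 9.30% and 15.9% to 25.2% in the same order. For both, the tumour ranges lay apart from both spleen ranges. For Dusp6 the ranges of healthy spleen (0.442% to 1.11%), tumour-bearing spleen (0.265% to 0.778%) and tumour (0.598% to 1.22%) overlapped. They also did for Dusp10, at 0.505% to 1.22%, 0.439% to 0.934% and 0.818% to 1.56% in that order, although the CPM of both genes did not overlap between tumour and spleen.

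Other genes of the family did not all move the same way. Among typical MAP kinase phosphatases, Dusp16, whose product acts on JNK and p38, was at 22.9 CPM in tumour NK cells and 5.58 CPM in tumour-bearing spleen NK cells, a log2 fold change of 1.90 (SE 0.377, adjusted p = 0.000753). Its tumour replicate 2 was high, at 42.0 CPM beside 15.6, 18.6 and 15.2 in the others, and without it the change was 1.53. Dusp7, an ERK phosphatase of the cytoplasm and a close relative of Dusp6, was lower in the tumour, at 6.65 CPM against 15.3 (log2 fold change −1.26, adjusted p = 0.00822). Against healthy spleen Dusp16 was at 2.29 (adjusted p = 0.000857) and Dusp7 at −1.87 (adjusted p = 0.000412). Against healthy replicate 1 alone Dusp16 was no longer called (1.75, adjusted p = 0.114). Neither was called between the spleen groups.

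Dusp4, a nuclear phosphatase induced by ERK, had 0 counts in all 7 spleen libraries and 4, 2, 6 and 7 counts in the tumour libraries. Its pooled tumour level of 4.11 CPM was 8.80 times the 3-count limit pooled over the tumour-bearing spleens, and 5.11 times that over the healthy spleens. These ratios leave out the counting error of the tumour level. Dusp8 had 8, 2, 12 and 5 counts in the tumour libraries, 0, 3, 0 and 1 in the tumour-bearing spleens and 0, 2 and 1 in the healthy spleens. Both genes were removed by the filter on low counts. Without that filter both were called higher in the tumour against tumour-bearing spleen (adjusted p = 0.00137 for Dusp4 and 0.00297 for Dusp8) and against healthy spleen (0.00574 and 0.0156). In DESeq2 the adjusted p-values were 0.00152 and 0.0111 against tumour-bearing spleen and 0.0135 and 0.055 against healthy spleen. No gene listed in the NK table had a highest count below 6, and Dusp4 and Dusp8 reached 6 only in tumour libraries. Both were thus listed through the tumour group, which fixed their direction beforehand. Their p-values are descriptions and not support for a rise. Dusp9 has no value in the NK table.

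Of 18 further genes named Dusp or of the related STYX group, 8 were in the table and 7 were tested. Dusp22, whose product regulates JNK and T cell receptor signalling, was the one called lower in the tumour against tumour-bearing spleen, at 39.9 against 97.1 CPM (log2 fold change −1.25, adjusted p = 7.88e-06). It was higher in tumour-bearing than in healthy spleen, at 97.1 against 50.2 CPM (log2 fold change 0.94, adjusted p = 0.00574, and 0.0551 without healthy replicate 2). Between tumour and healthy spleen it was not called (−0.31, adjusted p = 0.23). Dusp3, a small phosphatase of ERK and JNK, was called higher in the tumour at 0.91 against tumour-bearing spleen (adjusted p = 0.0264) and 1.21 against healthy spleen (adjusted p = 0.014), and lost its call in 7 and 4 of 20 alternative settings. Dusp11, Dusp12, Dusp19, Dusp23 and Dusp28 were called in no comparison.

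**Figure D3:**
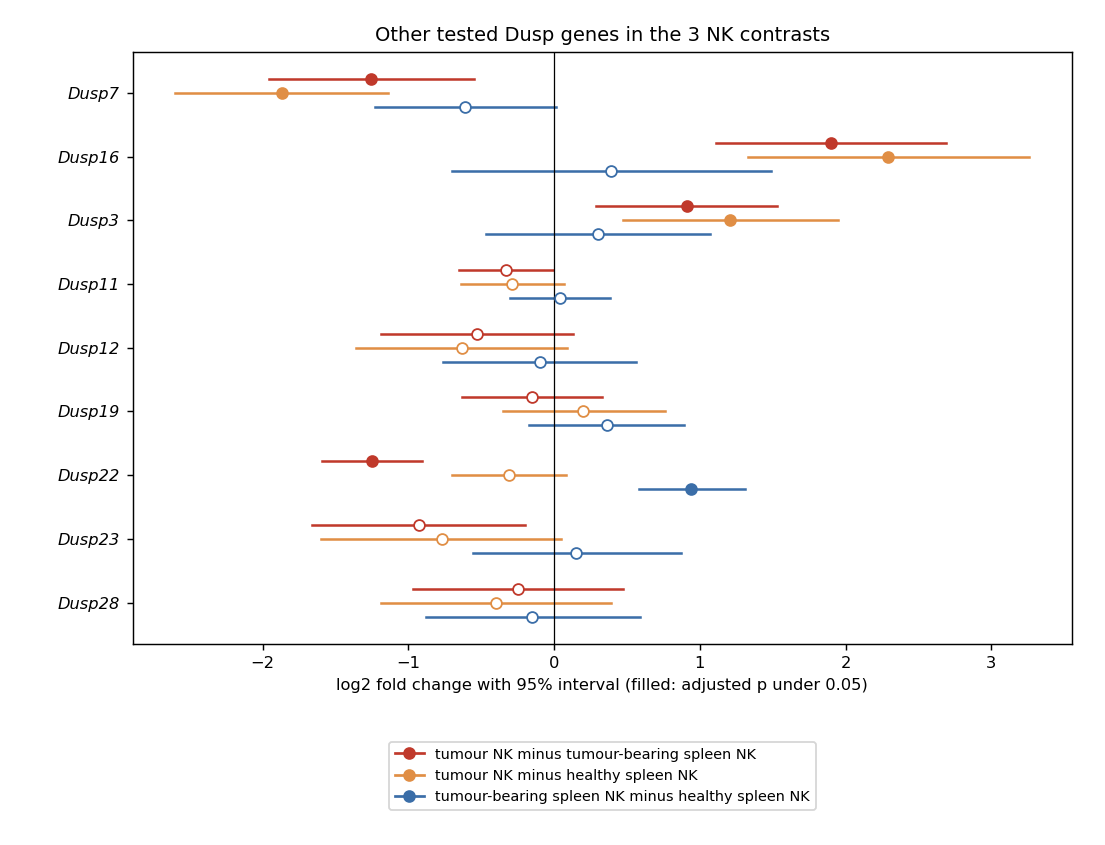
Log2 fold changes of the other 9 tested genes named Dusp in the 3 NK comparisons, 1 colour per comparison, as points with 95% intervals, filled where called. Dusp16 and Dusp3 lie above 0 in both tumour comparisons, Dusp7 lies below 0 in both, and Dusp22 is lower in the tumour against tumour-bearing spleen and higher in tumour-bearing than in healthy spleen.

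The kinases that these phosphatases act on, and those upstream, were mostly not called. That also held for all genes tested, of which 15.8% were called higher and 13.2% lower in tumour against tumour-bearing spleen. Of 23 genes of the ERK cascade, from Ras and its exchange factors to ERK and its substrate kinases, 22 were tested, with 4 called higher and 2 lower in tumour against tumour-bearing spleen and a median log2 fold change of 0.07. Mapk3, which encodes ERK1, was at −0.24 (adjusted p = 0.286), and Map2k2, which encodes an activating kinase of ERK, at 0.10 (adjusted p = 0.598). Rasgrp2, an exchange factor for Rap and Ras, fell from 457 to 159 CPM (log2 fold change −1.52, adjusted p = 1.23e-07), and Mknk2, a substrate kinase of ERK and p38, rose from 448 to 1026 CPM (1.20, adjusted p = 6e-07). Sos2, a Ras exchange factor (0.88, adjusted p = 0.0267), and Ksr1, a scaffold of the cascade (0.77, adjusted p = 0.0413), were called with less margin: they lost the call in 7 and 11 of 20 alternatives, among them each of several single libraries left out. Against healthy spleen 3 genes of the list were called higher and 1 lower, beside 16.5% and 14% of all genes tested. Rasgrp2 was at −1.79 and Mknk2 at 1.10.

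In the JNK and p38 cascades, 18 of 24 listed genes were tested, of which 5 were called higher and 0 lower in tumour against tumour-bearing spleen, with a median of 0.26. Over all genes tested, 15.8% were higher and 13.2% lower. Map3k8, an upstream kinase that activates the ERK arm in immune cells, rose from 21.9 to 79.5 CPM (log2 fold change 1.85, adjusted p = 9.27e-05). Map2k3, an activating kinase of p38, rose from 53.6 to 149 CPM (1.47, adjusted p = 1.99e-07), and Mapkapk3, a substrate kinase of p38, from 31.7 to 91.1 CPM (1.50, adjusted p = 1.21e-05). Mapk14, which encodes p38 alpha, was at 0.27 (adjusted p = 0.149), and Map2k7, an activating kinase of JNK, at 0.06 (adjusted p = 0.832). Against healthy spleen 5 were higher and 1 lower, beside 16.5% and 14% of all genes tested. Map2k3 was at 1.51, Mapkapk3 at 1.78 and Map3k8 at 1.42. Against healthy replicate 1 alone Map3k8 was at 0.56 and not called (adjusted p = 0.216).

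Feedback inhibitors and known output genes of ERK were less complete in the table: 10 of 17 were listed and 6 were tested. Of these, 5 were called higher and 0 lower in each tumour comparison, with medians of 1.83 against tumour-bearing spleen and 2.04 against healthy spleen, the list holding few tested genes. Over all genes tested, 15.8% were higher and 13.2% lower against tumour-bearing spleen, and 16.5% and 14% against healthy spleen. Phlda1, an ERK-induced gene, rose from 14.7 to 105 CPM (log2 fold change 2.79, adjusted p = 1.56e-07) in tumour against tumour-bearing spleen. Emp1 changed by 2.68, Ier3 by 1.83 and Errfi1, an inhibitor of the EGF receptor family, by 1.44. Spry2, an inhibitor of signalling to ERK, was not called (1.82, adjusted p = 0.134) although its groups did not overlap: the tumour-bearing spleen libraries spread from 14.9 to 116 CPM (60.5 ± 53.1, SD, n = 4) and the tumour libraries averaged 213 ± 49.0 CPM (SD, n = 4). It was called on either side of the spleen axis taken alone, but the sides were drawn from these same libraries, which narrows the spread within a side.

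Immediate early genes, which are transcribed within minutes of a signal and to which Dusp1, Dusp2 and Dusp5 are often assigned, were mostly higher in the tumour as well. All 21 listed genes were tested, and in tumour against tumour-bearing spleen 19 were called higher and 1 lower, with a median of 1.84. The shares over all genes tested were 15.8% and 13.2%. Fosb rose from 13.1 to 492 CPM (log2 fold change 5.17, adjusted p = 3.39e-06), the nuclear receptor gene Nr4a3 from 57.3 to 889 CPM (3.96, adjusted p = 6e-07) and Gadd45b, whose product interacts with kinases upstream of p38 and JNK, from 61.6 to 896 CPM (3.85, adjusted p = 4.48e-12). Maff averaged 178 CPM in the tumour and 2.74 CPM, near the limit that a count of 0 allows, in tumour-bearing spleen. Egr3, named because it was the 1 lower gene, was at −1.37 (adjusted p = 0.0099) with groups that overlapped, its call was lost without tumour-bearing replicate 2 and on the second side of the spleen axis, and Egr2 was not called (−0.46, adjusted p = 0.234). Against healthy spleen 19 were higher and 0 lower, beside 16.5% and 14% of all genes tested, with a median of 2.86 for the list.

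These genes are also known to be induced while tissue is digested at 37 °C, a step that the tumours had and the spleens had not. Its part in the rise of the members was not tested and cannot be told apart from tissue. The spleen comparison does not have this difference in handling, but it is a separate comparison and does not measure the rise in the tumour. Between the spleen groups 4 of the 21 immediate early genes were called higher and 0 lower, beside 1.23% and 0.354% of all genes tested. The median of the 21 was 0.66, beside −0.00 over all genes tested. Egr1 rose from 21.9 to 83.2 CPM (log2 fold change 1.97, adjusted p = 0.001) and Jun from 11.4 to 34.8 CPM (1.64, adjusted p = 0.00337). Egr2 was at 2.17 (adjusted p = 0.00337) and Egr3, with a healthy mean of 3.33 CPM, at 2.69 (adjusted p = 0.0052). Without healthy replicate 2 the calls of Egr2 and Egr3 were lost and 2 remained.

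Dusp1 is also a known target of the glucocorticoid receptor. Of 10 other genes induced by glucocorticoids, all tested, 4 were called higher and 2 lower in tumour against tumour-bearing spleen, with a median of 0.57. The shares over all genes tested were 15.8% and 13.2%. Per1, a clock gene, was at 2.93 (adjusted p = 8.6e-10), Nfkbia, the inhibitor of NF-kappaB and also its target, at 2.76 (adjusted p = 2.08e-11) and Ddit4 at 1.43 (adjusted p = 0.00191), whereas Pik3ip1 was at −1.82 (adjusted p = 4e-05). Tsc22d3, which encodes GILZ, was not called (0.85, adjusted p = 0.156), nor was Sgk1 (0.23, adjusted p = 0.311). Against healthy spleen 4 were called higher and 2 lower, beside 16.5% and 14% of all genes tested. In the spleen comparison Fkbp5 alone was called (0.85, adjusted p = 0.0197), and the call was lost without any 1 of healthy replicates 2 and 3 and tumour-bearing replicates 1 and 2.

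Of 9 phosphatases of other families, chosen as regulators of MAP kinases or of receptor signalling, 8 were in the table and 7 were tested, with 4 higher and 0 lower in tumour against tumour-bearing spleen and a median of 0.45. Over all genes tested, 15.8% were higher and 13.2% lower. Ptpn22, a phosphatase of antigen receptor signalling, rose from 237 to 663 CPM (log2 fold change 1.48, adjusted p = 0.000275). Ppp2ca, a catalytic subunit of PP2A, was at 0.56, Ppm1a at 0.53 and Ppp2cb at 0.45. Without tumour-bearing replicate 3, 1 of the 4 stayed called. Ptpn7, a tyrosine phosphatase of ERK and p38 in blood cells, was not called against tumour-bearing spleen (0.02, adjusted p = 0.904), was called against healthy spleen (0.53, adjusted p = 0.00419), and was at 0.51 between the spleen groups (adjusted p = 0.0567). Against healthy spleen 3 of the 7 were higher and 0 lower, beside 16.5% and 14% of all genes tested.

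**Figure D4:**
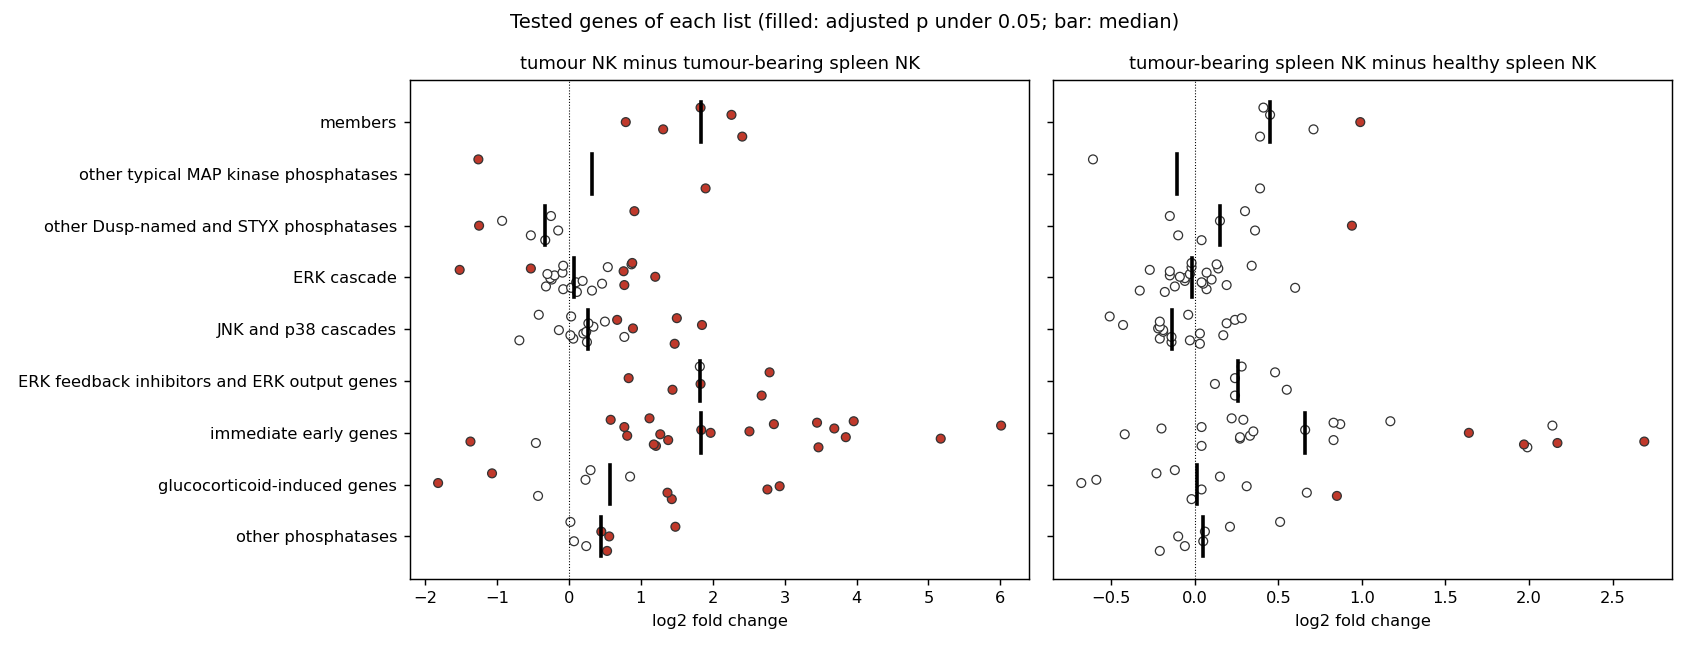
Log2 fold changes for the tested genes of each list, 1 point per gene, filled where called, with a bar at the median of the list and a dotted line at 0, in tumour NK minus tumour-bearing spleen NK (left) and tumour-bearing minus healthy spleen NK (right, on a narrower axis). On the left the members (median 1.83), ERK feedback and output genes (1.83) and immediate early genes (1.84) lie mostly above 0 and the ERK cascade (0.07) is centred near 0, and on the right few points are filled.

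Among genes tested, leaving out the members and Gm or Rik names, those whose levels most resembled each member's were named. The measure was Pearson's r of log2 CPM over the 11 NK libraries. These points share the division between tumour and spleen and the scaling, so that any gene that differs strongly between tissues scores high, and r is a description. For Dusp2 they were Tnfrsf9, which encodes the activation receptor 4-1BB (r = 0.991), Gzmb, which encodes granzyme B (0.982), Plk3, Ldha and Irf8. Over the 7 spleen libraries alone, r with Dusp2 was 0.977 for Tnfrsf9 and 0.971 for Gzmb. These 7 are among the 11 libraries by which the genes were picked, and they still hold the difference between the spleen groups. From healthy to tumour-bearing spleen the log2 fold changes were 0.99 for Dusp2, 1.91 for Tnfrsf9 and 1.34 for Gzmb. For Dusp1 the nearest genes were Rgs1, a regulator of chemokine receptor signalling (0.979 over 11 libraries, 0.840 over 7), Bhlhe40, Selenos, Rasgef1b and Nr4a1. For Dusp5 they were Cebpb (0.990) and Junb (0.990), both transcription factors induced by signals, then Isy1, Polg2 and Tob2.

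For Dusp6 the nearest genes were Tcf7, which encodes the transcription factor TCF1 (0.981 over 11 libraries, 0.935 over 7), H60b, Ifi44, Gpr34 and Ahr. For Dusp10 they were Hdgf (0.960), Cdk6, Samsn1, Bzw2 and Ifi44l. Both rest on low counts. Among the members themselves r over the 11 libraries ran from 0.755 (Dusp2 with Dusp6) to 0.949 (Dusp1 with Dusp5). Over the 7 spleen libraries it ran from −0.367 (Dusp5 with Dusp6) to 0.739 (Dusp2 with Dusp5), so the tight relation over all libraries rests on the tumour libraries.

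In the sCAF libraries, which form a separate table with no group to compare with and were scaled to their own totals, all 5 members had counts. Dusp1 was at 791, 841 and 573 CPM (735 ± 143, SD, n = 3) and Dusp6 at 313, 312 and 199 CPM (275 ± 65.5, SD, n = 3). Dusp2 was at 38.6, 90.3 and 102 CPM (77.0 ± 33.8, SD, n = 3), Dusp5 at 40.4, 31.1 and 50.3 CPM (40.6 ± 9.60, SD, n = 3) and Dusp10 at 48.9, 34.1 and 72.1 CPM (51.7 ± 19.1, SD, n = 3). Set beside tumour NK cells, where Dusp1 averaged 313, Dusp6 20.8, Dusp2 2623, Dusp5 494 and Dusp10 27.0 CPM, the sCAF values were higher for Dusp1, Dusp6 and Dusp10 and lower for Dusp2 and Dusp5. No test was made across the tables. Of the other family members, Dusp4 averaged 33.9 CPM, Dusp8 76.4, Dusp9 38.7, Dusp16 40.4 and Dusp7 16.5 CPM in sCAFs. The immediate early genes Fos (2453 CPM) and Jun (1877 CPM) were also present in these cells from digested tumours.

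The markers in sCAFs were mixed for a fibroblast label: of 8 epithelial genes, Krt18 (2250 to 2993 CPM), Krt8 (691 to 826 CPM) and Cldn4 (107 to 268 CPM) were the highest. Epcam (5.83 to 27.3 CPM), Cdh1 (8.52 to 40.2), Krt14 (8.97 to 37.2) and Krt19 (19.7 to 43.6) were lower, and Krt5 had 0 counts. Of 10 fibroblast genes, Col1a2 was at 178 to 415 CPM, Col3a1 at 75.8 to 264, Pdgfrb at 40.2 to 217, Dcn at 39.9 to 146, Pdgfra at 40.2 to 84.8 and Col1a1 at 46.2 to 81.8 CPM. Lum (0.759 to 1.50 CPM), Fap (0.448 to 2.28), Acta2 (3.00 to 3.79) and Pdpn (0.897 to 3.75), for which the sort was negative, were low.

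Markers of other cells moved with the tumour NK libraries and are given for that reason. Of 12 macrophage and monocyte genes, 8 were in the NK table, summing to 0.00409% to 0.0234% of counts in tumour libraries, 0.00179% to 0.00285% in tumour-bearing spleen and 0.00107% to 0.00253% in healthy spleen libraries. Adgre1, Mrc1, Fcgr1 and Ms4a7 have no value there. The highest was tumour replicate 3, with C1qa at 23.5 and Apoe at 105 CPM, which was also highest for Dusp6. Without that library Dusp6 was at 1.61 and still called (adjusted p = 0.00539).

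Of 8 neutrophil genes 4 were in the table, at 0.00557% to 0.0153% in tumour and at most 0.00119% in tumour-bearing spleen. Of 8 epithelial genes 2 were, at 0.0025% to 0.0051% and at most 0.000297%, with Krt8 and Krt18 having no value in the NK table. The epithelial sum in tumour was mostly Cdh1, at a mean of 42.0 CPM beside 1.13 in tumour-bearing spleen. Epcam averaged 4.06 CPM in tumour and 0.397 in tumour-bearing spleen. The 2 of 10 fibroblast genes in the table overlapped between groups, at 0.000281% to 0.00198% in tumour and 0.000311% to 0.00125% in tumour-bearing spleen. Pecam1, which encodes the sort marker CD31 and is the 1 of 6 endothelial genes in the table, was at 0.0131% to 0.0185% in tumour, 0.00793% to 0.0093% in tumour-bearing spleen and 0.00482% to 0.0081% in healthy spleen. The T cell genes summed to 0.00592% to 0.00981% and the dendritic cell genes to 0.0173% to 0.0224% in tumour. The dendritic cell sum was mostly Itgax, at means of 198 CPM in tumour, 270 in tumour-bearing spleen and 160 in healthy spleen. Zbtb46 was higher in tumour, at 12.36 to 22.95 CPM, beside at most 5.34 in tumour-bearing spleen and 4.28 in healthy spleen. The part of these cells in the members' levels was not tested.

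In the GENCODE M21 annotation of the same build, Dusp1 lies at chr17:26505590-26562128 on the minus strand and Dusp2 at chr2:127336159-127338376 on the plus strand. Dusp5 lies at chr19:53529109-53542431, Dusp6 at chr10:99263231-99267489 and Dusp10 at chr1:184013302-184075636, all on the plus strand. Whether reads were counted by strand is not given in the sources used here, so reads of antisense partners cannot be told apart. Ergic1 lies on the other strand and touches an exon of Dusp1. It averaged 12.6 CPM in healthy spleen, 16.6 in tumour-bearing spleen and 22.8 in tumour NK cells, and its log2 fold change was 0.46 in tumour against tumour-bearing spleen (adjusted p = 0.158) and 0.90 against healthy spleen (adjusted p = 0.021), where it was called. AC137853.2 touches an exon of Dusp5 and has no value in the NK table.

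**Figure D5:**
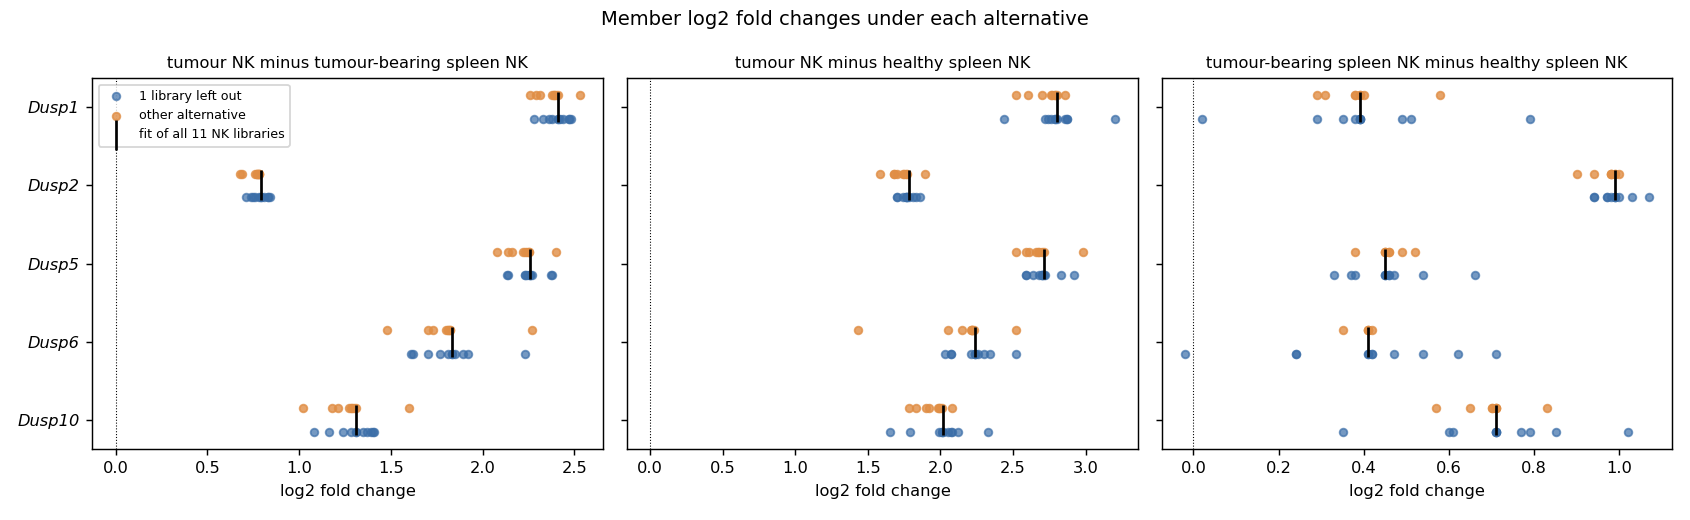
Log2 fold changes of the 5 members in the 3 NK comparisons under every alternative setting, 1 point per setting (blue with 1 library left out, orange for other settings), with a bar at the value from the fit of all 11 libraries. All points of the tumour comparisons are above 0, from 0.68 to 3.20, and those of the spleen comparison lie between −0.02 and 1.07.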

How the data were processed

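RNA of 11 NK and 3 sCAF libraries was measured by 3' end sequencing. The authors deposited raw counts per gene symbol in 2 tables, and the submitters' processing notes name bcl2fastq, STAR 2.4.2a, HTSeq and the build mm10. The highest count of any gene listed in the NK table was never below 6, so totals are sums over listed genes. In each header line 1 tab was replaced by spaces (in the NK table between the names of tumour replicates 3 and 4), and columns were read by position. Both tables held only whole numbers.

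Counts were fitted in edgeR 4.0.16 (R 4.3.3) by the quasi-likelihood test with robust estimation on all 11 NK libraries, with no term besides the group, after filterByExpr (8471 genes) and TMM scaling (factors 0.910 to 1.17). P-values were adjusted by Benjamini-Hochberg over all genes tested in each of 3 comparisons, and a gene was called at an adjusted p under 0.05. SE is the log2 fold change divided by the root of the F statistic, and intervals are at 95%. The sCAF levels are CPM on raw totals. Alternatives were other scalings, no filter, DESeq2 1.42.0, 2 groups only, a replicate block, each library left out and either side of the spleen axis. The fit was tested on simulated counts.

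The members, the gene lists and the spleen sides were chosen with earlier results of these data known, so the counts per list are descriptions. From each list up to 4 called genes with the largest change and up to 2 uncalled genes with the highest mean CPM were named. For each member the 5 tested genes with the highest r were named, leaving out the members and genes with Gm or Rik names. Promoter sequences came from RefSeq tables, in which all 5 members matched.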

Additional observations from a re-analysis of the deposited data

How the results depend on the processing

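The 5 members were called higher in tumour against tumour-bearing spleen under all 20 alternatives, with log2 fold changes of 2.26 to 2.53 for Dusp1, 0.68 to 0.84 for Dusp2, 2.08 to 2.40 for Dusp5, 1.48 to 2.27 for Dusp6 and 1.02 to 1.60 for Dusp10. Over both tumour comparisons 199 of 200 member values kept their direction and call, the exception being Dusp6 against the healthy library on the first side of the spleen axis. In the spleen comparison Dusp2 stayed called (0.90 to 1.07, adjusted p up to 0.0111), the spleen side as a block in a fit of the 7 spleen libraries called 2 members and 691 of all genes (134 in the fit of 11 libraries, 114 with the 2 groups alone and no block), and uncalled values turned sign for Dusp6 without tumour-bearing replicate 1 (−0.02, and up to 0.71 with another library left out) and for Dusp16 without tumour-bearing replicate 2 (−0.01, and up to 0.56). The spleen-side block was drawn from these same libraries and narrows the spread by construction. Leaving out 1 library gave 42 (without healthy replicate 2) to 142 genes called in the spleen comparison, and 67 without healthy replicate 3. Against healthy spleen 2582 genes were called, 2474 with the 2 groups alone, 1467 with a replicate block added to those groups over the numbers they share, and 1471 with the first side only, where 4 spleen libraries were left out. Same-numbered deviations correlated from −0.353 to 0.501, and both ends came from the spleen comparison, whose groups are different mice. In tumour against tumour-bearing spleen, r was −0.047, 0.288, 0.002 and 0.211 for replicates 1 to 4 in order. Pairs with different numbers in that comparison ran from −0.252 to 0.158. Whether tumour and spleen libraries with the same number share a mouse was not tested. The replicate block changed no member's call. It called 2820 genes in tumour against tumour-bearing spleen (2509 with the same 2 groups and no block) and 167 between spleens (114). Other scalings moved the percentage of calls that were higher from 54.5% to 41.6% (upper quartile) and 37.7% (library totals) in tumour against tumour-bearing spleen, from 54.2% to 42.4% and 32.8% against healthy spleen, and from 77.6% to 65.9% (library totals) between spleens. Library totals moved the median of all genes to −0.12 and −0.18 in the tumour comparisons, with all members still called higher. The ERK cascade had 2 to 6 higher genes and the other phosphatases 1 to 4 in tumour against tumour-bearing spleen, while immediate early genes had 16 to 19. Low counts limit Dusp6 and Dusp10 most. The cause of these changes was not tested.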
